A study of Mus musculus with 12 samples.

Results

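The genes described here encode neurotrophins, their receptors, 2 granin-type secreted factors and the neuronal pentraxins: Bdnf, Ntf3, Ntrk2, Ntrk3, Vgf, Scg2, Nptx1, Nptx2 and Nptxr. They were chosen by gene symbol, and all 9 were present among the 19312 genes of the deposited table and passed the filter on low values in every comparison. Transcripts were measured by RNA-Seq in 12 male mice at postnatal day 25 (P25), with 3 mice in each of 4 groups. The groups were wild-type mice given vehicle (WT-Veh) or memantine (WT-Mem), and mice lacking exons 6 and 7 in both Shank2 alleles, given vehicle (KO-Veh) or memantine (KO-Mem). Shank2 is a scaffold protein of excitatory synapses, and memantine is a blocker of the NMDA type of glutamate receptor. The dose was 20 mg/kg by mouth, 2 times a day from P7 to P21, in 0.1% saccharin. The labels give the strain as C57BL/6N and the tissue as whole brain, whereas the study's methods name a further strain in the origin of the line and give forebrain with the cerebellum and the underlying brain stem removed. The deletion was present in every cell, and brains were not pooled.

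BDNF and neurotrophin-3 (the products of Bdnf and Ntf3) are secreted growth factors that act through the receptor tyrosine kinases TrkB (Ntrk2) and TrkC (Ntrk3). Bdnf, Nptx2, Vgf and Scg2 are known as genes that neurons induce in response to synaptic activity and calcium, partly through the transcription factor CREB, which binds a DNA element called the CRE. Granin-type proteins such as VGF and secretogranin II travel in dense-core vesicles and are cut into peptides, and the pentraxins NPTX1 and NPTX2, with the membrane-bound pentraxin receptor NPTXR, gather AMPA-type glutamate receptors at synapses.

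Sequence bears on these genes at a pair of places. The first is Nptxr, which lies on the minus strand at chr15:79786351-79804766 of GRCm38 and shares exons with a gene named Npcd. The protein-coding transcripts of Npcd begin in exons of the neighbouring gene Cbx6, a Polycomb group gene, and then join the second exon of Nptxr (chr15:79794256-79794475). From that join to their end, 890 bases are the same as in Nptxr, whose first exon and further 3′ bases are not in Npcd. The 30 bases across the join are shown because the bases before it are shared with Cbx6 and those after it with Nptxr, so that the join marks Npcd apart from both. Capitals mark the 15 bases that come from the exon before the join, and lower case marks the shared exon.
Nptxr, transcript of 5006 bases: ATCGAGCGCATCGAGcaggagctcccagcc
Npcd, transcript of 1453 bases: ATCCTGAACCTGAAGcaggagctcccagcc
Npcd, transcript of 1162 bases: ACTTTCCTCCTAAAGcaggagctcccagcc
In the 1453-base transcript the bases before the join number 563, all of them in 1 run shared with a Cbx6 transcript, and in the 1162-base transcript they number 272.

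The second is the start of Scg2. Promoter windows (250 bases before to 50 after a RefSeq start, GRCm38.p6) were at hand for 4 of the 9 genes, namely Bdnf with 7 windows, Ntf3 with 2, and Ntrk2 and Scg2 with 1 each. The full CRE, TGACGTCA, which reads the same on both strands, was present in 1 of these 11 windows, that of Scg2, compared with 1.79% of the 32851 promoter windows in the RefSeq table (588 windows). The element lay 68 bases before the RefSeq start, and in the GENCODE annotation it falls in the 5′ untranslated part of the first exon of the longer Scg2 transcript. The 30 bases around it, on the minus strand of chr1:79440076-79440105, are printed with the CRE in capitals.
Scg2: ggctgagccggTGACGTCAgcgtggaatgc
A shorter form, TGACG on either strand, which is contained in the full element, was found in 1 of the 7 Bdnf windows and in 20.8% of all windows (6837). A match is a description of letters, and no binding was measured.

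The values are the authors' normalized read counts, whose sums over genes ranged from 30373849 to 31199251 per mouse. Shank2 itself ranged from 7156 to 8548 in the 6 WT mice and from 2706 to 3178 in the 6 KO mice, so that each mouse matched its labelled genotype. Markers of other cell types differed between the genotypes in the fit of all 12 mice: 5 of 6 oligodendrocyte markers were lower in KO mice past the threshold, with a summed level of 329080 to 407700 in WT-Veh and 237440 to 280480 in KO-Mem, and 3 of 4 red blood cell markers were lower, with a summed level of 18306 to 24699 in WT-Veh and 5454 to 11817 in KO-Mem. Of the 6 astrocyte markers, Fgfr3 was higher and Aqp4 and Gja1 were lower. Of the other lists, 3 of 4 endothelial, 1 of 5 microglial and 1 of 3 oligodendrocyte precursor markers were lower, 3 of 6 inhibitory neuron markers were higher and 1 lower, and 0 of 6 excitatory neuron markers and 0 of 5 cerebellar markers passed. The sums of WT-Mem and KO-Veh overlapped, at 294380 to 345280 and 285940 to 305400 for oligodendrocyte markers. For red blood cell markers they were 12467 to 13991 and 7337 to 17626. Memantine went with lower values too, though 0 of these markers passed. Its median log2 difference was -0.155 in WT and -0.249 in KO mice for oligodendrocyte markers, and -0.58 and -0.68 for red blood cell markers. The third KO-Veh mouse had a summed level of 5 cerebellar markers of 3135, compared with 262 to 509 in the other mice. The part of these shifts in the results below was not tested, and in tissue RNA fewer cells of a type cannot be told apart from less RNA per cell.

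Levels of different genes were compared per kilobase of annotated exon. On that scale Nptxr was highest, at 6807 normalized counts per kilobase averaged over the 12 mice, which placed it at the 99.4th percentile of 15051 protein-coding genes. Scg2 (2488), Vgf (1963) and Nptx1 (1913) followed at percentiles of 96.3 to 97.4, then Ntrk2 (1211) and Nptx2 (666). The other 3 genes were lower, with Ntrk3 at 228, Bdnf at 85.2 and Ntf3 at 27.8. The neurotrophin transcripts were therefore the lowest of the 9, and TrkB transcripts stood above those of its ligand. The order depended on the length used: per kilobase of the longest coding transcript, Ntrk2 (2672) moved from rank 5 to rank 2, while Nptxr (7030) stayed first and Bdnf (124) and Ntf3 (32.2) stayed last. The longest coding transcripts of Ntrk2 and Ntrk3 have 8744 and 19703 bases, but the median ones have 3049 and 2726. For Nptxr these lengths are 5006 and 4977. The places of Ntrk2, Ntrk3 and Nptxr were therefore not settled.

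**Figure D1:**
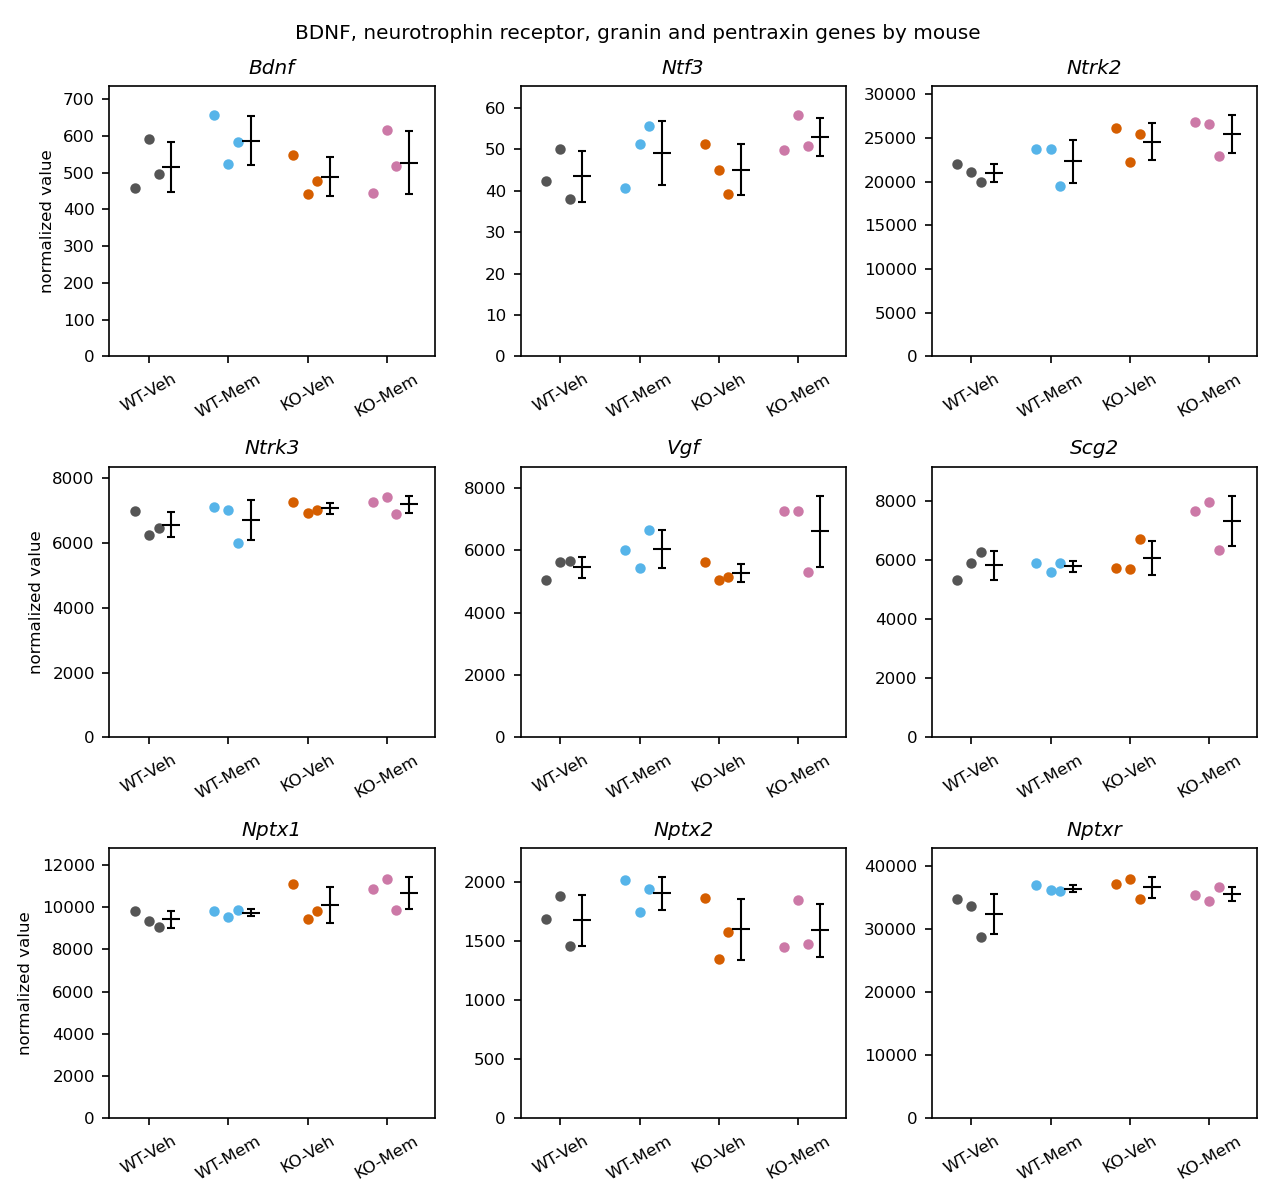
Normalized value (vertical axis, from 0) of each of the 9 genes in the 4 groups; each point is 1 mouse, and the horizontal bar with whiskers is the group mean ± SD of 3 mice. Ntrk2 means rise from 21024 in WT-Veh to 25478 in KO-Mem, and for Vgf and Scg2 a pair of KO-Mem mice stand above all the others.

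Pairs of groups were compared in 6 ways, each on its own 6 mice, together with 2 contrasts in all 12 mice: the difference between genotypes averaged over treatments, and the interaction (the KO minus WT difference under memantine less that under vehicle). Fold changes are on the log2(value + 1) scale from limma, with Benjamini-Hochberg adjustment over all genes tested and a threshold of 0.05. A gene that passes this threshold is said to be called. Comparisons that share a group share its mice.

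In vehicle-treated mice (Veh-K/W), 0 of the 9 genes were called, compared with 0.0283% of all genes tested, and 2 had an unadjusted p under 0.05 (Ntrk2 and Nptxr, both higher in KO), compared with 14.4% of all genes. In memantine-treated mice (Mem-K/W), 0 were called (background 0.068%) and 2 had an unadjusted p under 0.05 (Scg2 higher and Nptx2 lower in KO; background 21%). The effect of memantine in KO mice (KO-M/V) gave 0 calls (background 0%) and 2 genes at an unadjusted p under 0.05 (Vgf and Scg2, both higher with memantine; background 8.88%). Its effect in WT mice (WT-M/V) gave 0 calls (background 0.0114%) and 0 genes at an unadjusted p under 0.05 (background 3.97%). A count of 2 in 9 was near the share over all genes in both comparisons between genotypes. The study's own fits, which modelled read counts, reported many more genes in both of these comparisons. The calls here are those of limma on normalized values, and the absence of a call does not show the absence of a difference.

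KO-Mem compared with WT-Veh mice (KO-M/WT-V), which asks how far treated mutants stand from untreated controls, gave 0 calls among the 9 (background 3.37%), and 4 had an unadjusted p under 0.05, all higher in KO-Mem (background 25.9%): Ntrk2, Vgf, Scg2 and Nptx1. Between WT-Mem and KO-Veh (WT-M/KO-V), 0 were called (background 0.0227%) and 3 had an unadjusted p under 0.05, all higher in WT-Mem (background 8.94%): Bdnf, Vgf and Nptx2. The interaction gave 0 calls (background 0%) and 2 genes at an unadjusted p under 0.05 (Scg2 and Nptxr, in opposite directions; background 4.76%). With the genotypes averaged over treatments, 1 of 9 was called, Ntrk2, compared with 10.5% of all genes, and 4 had an unadjusted p under 0.05 (Ntrk2, Ntrk3, Scg2 and Nptx1, all higher in KO), compared with 29.4%. The median log2 fold change of the 9 genes in that contrast was 0.08, compared with 0.0035 over all genes tested. Without regard to sign, the median size over all genes was 0.125. KO-Mem replicate 3 moved these counts most: without it, 1 of the 9 was called in Mem-K/W, 1 in KO-M/V, 3 in KO-M/WT-V and 2 in the genotype contrast, while the genes called over the whole table rose from 12 to 1911, from 0 to 97, from 595 to 2490 and from 1856 to 3263.

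**Figure D2:**
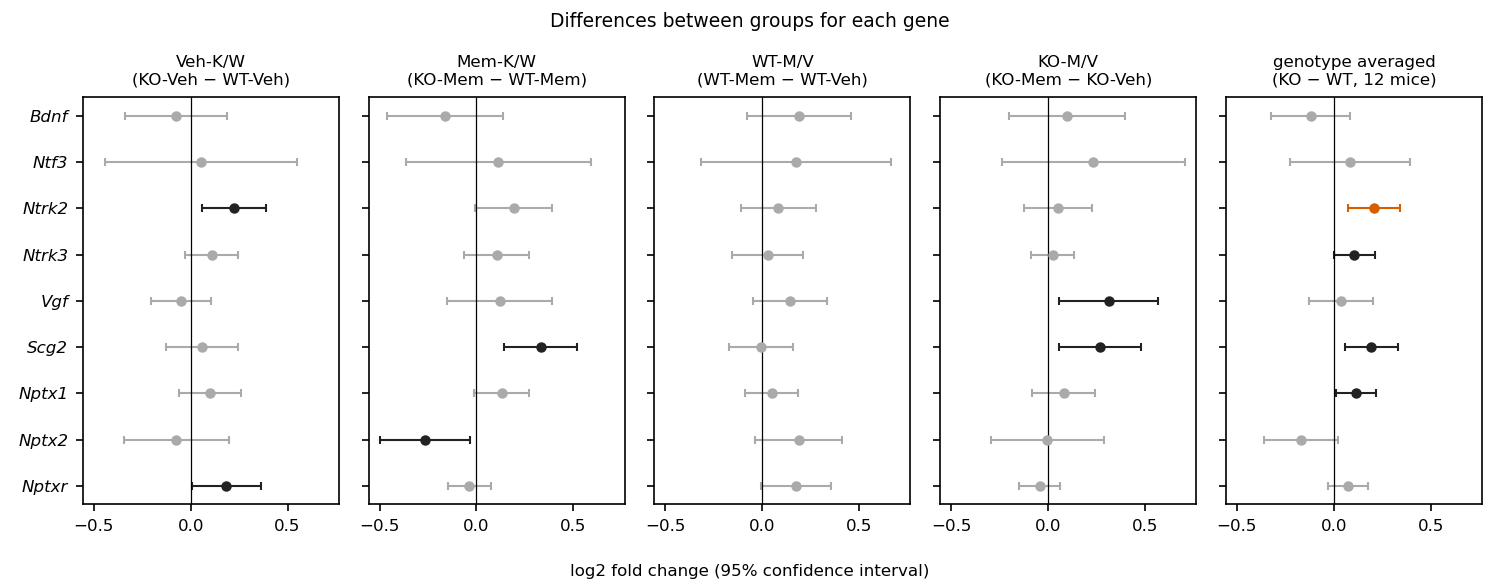
Log2 fold change of each gene (horizontal axis, points, with 95% confidence interval as whiskers) in 4 comparisons of 3 against 3 mice and in the genotype contrast over 12 mice. Orange marks an adjusted p under 0.05, black an unadjusted p under 0.05 and grey neither; the orange point is Ntrk2 in the genotype contrast, at 0.21.

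Bdnf (chr2:109674700-109727007, plus strand) had normalized counts of 459.7, 591 and 496 in WT-Veh mice and of 547, 442 and 478 in KO-Veh mice. With memantine the values were 657, 522 and 583 in WT mice and 446, 616 and 518 in KO mice. All groups overlapped. The group means followed the order KO-Veh (489), WT-Veh (516), KO-Mem (527) and WT-Mem (588), and each neighbouring pair in that order differed by less than the pooled SD of 69.5 within groups. Averaged over treatments, Bdnf was 0.12 lower in KO mice on the log2 scale, with a 95% confidence interval from -0.32 to 0.08 (limma, adjusted p = 0.424), and memantine changed it by 0.19 in WT mice (-0.08 to 0.46) and by 0.10 in KO mice (-0.20 to 0.40). The largest estimate was that of WT-M/KO-V, 0.26 (0.01 to 0.52, adjusted p = 0.544). The table gives 1 value per gene, so that the transcripts from the different Bdnf start sites were not distinguished. An antisense gene, Gm45346, overlaps 896 bases (14.4%) of Bdnf exons and has no value in the deposited table. The library kit does not record strand, so that reads of the pair cannot be told apart there.

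Ntf3 (chr6:126101412-126166910, minus strand) was the lowest of the 9 genes, at 37.9 to 58.3 normalized counts. The values were 42.5, 50.05 and 37.9 in WT-Veh mice and 51.3, 45.0 and 39.1 in KO-Veh mice. Memantine-treated WT mice had 40.7, 51.4 and 55.7, and memantine-treated KO mice 49.9, 58.3 and 50.8. No pair of groups was separated, and the genotype difference of 0.08 had an interval from -0.23 to 0.39 on the log2 scale. Of the 9 genes Ntf3 had the widest interval, and a change of that size would not have been detectable.

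Ntrk2 (chr13:58806569-59133970, plus strand), the gene of TrkB, was higher in KO than in WT mice. The normalized counts were 21999.6, 21107 and 19966 in WT-Veh mice and 26121, 22229 and 25459 in KO-Veh mice. The memantine-treated WT mice had 23797, 23705 and 19537, and the memantine-treated KO mice had 26834, 26624 and 22977. Every KO-Veh mouse exceeded every WT-Veh mouse, and so did every KO-Mem mouse, whereas 1 KO-Mem mouse fell within the range of the WT-Mem mice. The means rose in the order WT-Veh (21024 ± 1019.5, SD, n = 3), WT-Mem (22346 ± 2434), KO-Veh (24603 ± 2082) and KO-Mem (25478 ± 2169), of which the step from WT-Mem to KO-Veh alone exceeded the pooled SD of 2000, by a factor of 1.13. Over all 12 mice the genotype difference was 0.21 on the log2 scale (SE 0.06, a fold of 1.16, limma, adjusted p = 0.0484). By pair, the difference was 0.22 (SE 0.07, adjusted p = 0.244) under vehicle and 0.19 (SE 0.09, adjusted p = 0.25) under memantine, and the interaction was -0.03 (interval -0.30 to 0.24). The call was near the threshold, with an adjusted p of 0.0506 without the filter on low values and 0.108 without a mean trend in the variance. It also rested on most of the mice: leaving out any 1 of 10 mice raised the adjusted p to between 0.0523 and 0.122, with a difference of 0.16 to 0.23, and the exceptions were KO-Veh replicate 2 (0.0309) and KO-Mem replicate 3 (0.0161). Without the third KO-Veh mouse, which held the cerebellar markers, the difference was 0.19 (adjusted p = 0.115). In KO-M/WT-V the difference was 0.27 (SE 0.08, adjusted p = 0.0679), and 0.35 without KO-Mem replicate 3 (adjusted p = 0.015). With KO-Mem replicate 1 or replicate 2 left out, each alone, Ntrk2 was not called in KO-M/WT-V. Ntrk2 encodes a full-length kinase form and truncated forms that astrocytes also make, and these were summed in 1 value.

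Ntrk3 (chr7:78175959-78738012, minus strand), the gene of TrkC, followed the same order of groups with a smaller spread. Values were 6968, 6236 and 6466 in WT-Veh mice and 7258, 6924 and 7005 in KO-Veh mice. After memantine they were 7090.5, 7019 and 5979 in WT mice and 7254, 7392 and 6889.9 in KO mice. The group ranges overlapped, since a WT mouse in each treatment reached the lower KO values, and 2 WT-Mem mice lay above KO-Mem replicate 3. The genotype difference was 0.11 on the log2 scale (SE 0.05, adjusted p = 0.166), and the effect of memantine was 0.03 in WT mice and 0.02 in KO mice, with intervals from -0.15 to 0.21 and from -0.09 to 0.13.

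Vgf (chr5:137026392-137033351, plus strand) encodes a precursor of neuronal and endocrine peptides. Its normalized counts were 5052, 5624 and 5666 in WT-Veh and 5608, 5048 and 5139.6 in KO-Veh mice. With memantine, WT mice had 5991, 5442 and 6660.5 and KO mice had 7263, 7251 and 5294. A pair of KO-Mem mice were the highest of all 12, while the third KO-Mem mouse was no higher than the highest KO-Veh mouse. In KO-M/V the difference was 0.31 on the log2 scale (SE 0.11, limma, adjusted p = 0.554). Without KO-Mem replicate 3 it was 0.46 with an adjusted p of 0.0253. Vgf had no unadjusted p under 0.05 in KO-M/V with KO-Mem replicate 1, KO-Mem replicate 2 or KO-Veh replicate 2 left out, each alone. In WT-M/V the difference was 0.14 (SE 0.09, adjusted p = 0.978). The interaction, which tests whether the treatment effect differed by genotype, was 0.17 (interval -0.16 to 0.50). The genotype contrast over all mice was 0.04 (interval -0.13 to 0.20). In KO-M/WT-V the difference of 0.26 (adjusted p = 0.184) became 0.42 (adjusted p = 0.0099) without KO-Mem replicate 3. Vgf was not called in KO-M/WT-V with KO-Mem replicate 1 or replicate 2 left out, each alone.

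Scg2 (chr1:79434669-79440120, minus strand) encodes secretogranin II, the precursor of secretoneurin, and its CRE is printed above. The normalized counts were 5319, 5896 and 6269 in WT-Veh mice, and the KO-Veh mice had 5756, 5718 and 6728. Those of the WT-Mem mice were 5895, 5590.2 and 5918. The KO-Mem mice had 7659, 7967 and 6364. All KO-Mem mice lay above all WT-Mem and all WT-Veh mice, while 1 KO-Veh mouse lay above the lowest KO-Mem mouse. The means of WT-Mem (5801 ± 183), WT-Veh (5828 ± 479) and KO-Veh (6068 ± 573) were within 1 pooled SD (573) of their neighbours, and the KO-Mem mean (7329.9 ± 851) stood 2.2 pooled SDs above KO-Veh. In Mem-K/W the difference was 0.33 on the log2 scale (SE 0.08, limma, adjusted p = 0.0974), in Veh-K/W it was 0.06 (SE 0.08, adjusted p = 0.783), and in the interaction it was 0.27 (interval 0.0019 to 0.55, adjusted p = 0.947). Without KO-Mem replicate 3, the Mem-K/W difference was 0.43 (adjusted p = 0.00534). The KO-M/WT-V difference was then 0.43 (adjusted p = 0.0128, from 0.33 and 0.0753 with all mice). The genotype contrast was then 0.24 (adjusted p = 0.0105, from 0.19 and 0.0639 with all mice). Scg2 was called in none of these contrasts with KO-Mem replicate 1 or replicate 2 left out, each alone. Memantine changed Scg2 by 0.27 in KO mice (adjusted p = 0.554) and by -0.0040 in WT mice (interval -0.17 to 0.16). Scg2 had no unadjusted p under 0.05 in KO-M/V with KO-Mem replicate 1, KO-Mem replicate 2 or KO-Veh replicate 2 left out, each alone.

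Nptx1 (chr11:119538719-119547753, minus strand) encodes a secreted pentraxin of neurons. The values were 9836, 9329 and 9071 in WT-Veh mice and 11073, 9415 and 9807 in KO-Veh mice. Under memantine, WT mice had 9822, 9531 and 9845, and KO mice 10849, 11317 and 9844. Every KO-Mem mouse exceeded every WT-Veh mouse, the closest values being 9844 and 9836, and the other pairs of genotypes overlapped. The genotype difference was 0.11 on the log2 scale (SE 0.05, adjusted p = 0.136).

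Nptx2 (chr5:144545902-144557478, plus strand), the activity-induced pentraxin also called Narp, had group means in a different order. Its values were 1686, 1883 and 1454 in WT-Veh and 1863, 1349.9 and 1575 in KO-Veh mice. After memantine, WT mice had 2017, 1748 and 1939 and KO mice had 1451, 1846 and 1470.1. WT-Mem was highest and KO-Mem lowest on average, and 1 KO-Mem mouse overlapped the WT-Mem range. In Mem-K/W Nptx2 was 0.27 lower in KO mice (SE 0.10, adjusted p = 0.188), in Veh-K/W 0.07 lower (SE 0.12, adjusted p = 0.815), and the interaction was -0.19 (interval -0.57 to 0.19). Over all mice the genotype difference was -0.17 (interval -0.36 to 0.02, adjusted p = 0.22).

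Nptxr (minus strand, position given above), the membrane-bound pentraxin, was lowest in vehicle-treated WT mice. The normalized counts were 34706, 33564 and 28704 in WT-Veh mice and 37076, 37909 and 34772 in KO-Veh mice. Memantine-treated WT mice had 37001, 36217 and 35927, while memantine-treated KO mice had 35435, 34381 and 36637. All WT-Mem and all KO-Veh mice lay above all WT-Veh mice, the closest pair of mice being 34706 in WT-Veh and 34772 in KO-Veh. KO-Mem and WT-Mem overlapped. The difference was 0.18 on the log2 scale in Veh-K/W (SE 0.08, adjusted p = 0.337), 0.18 in WT-M/V (SE 0.08, adjusted p = 0.978), and -0.04 both in Mem-K/W and in KO-M/V (SE 0.05 each). The interaction of -0.22 (SE 0.10) had an adjusted p of 0.947 over all genes. The differences that involve WT-Veh leaned on its replicate 3, the lowest mouse: without it the Veh-K/W difference was 0.10 (adjusted p = 0.483), the WT-M/V difference 0.09 and the interaction -0.14 (adjusted p = 0.992). That mouse also held 6.10% of its counts in its 10 highest genes, compared with 4.35% to 5.04% in the others.

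Npcd, which shares the 890 bases with Nptxr, had low estimated values that differed between the genotypes. It had values of 187, 23.4 and 23.2 in WT-Veh mice and 252, 135 and 229 in KO-Veh mice. With memantine the WT mice reached 67.0, 104 and 74.8 and the KO mice 521, 314 and 299. Every KO-Mem mouse exceeded every mouse of the other groups, and all KO mice exceeded all WT mice except WT-Veh replicate 1. Npcd was higher in KO mice by 2.11 on the log2 scale over all 12 mice (SE 0.41, limma, adjusted p = 0.011), by 2.17 in Mem-K/W (SE 0.24, adjusted p = 0.0125) and by 2.05 in Veh-K/W (SE 0.65, adjusted p = 0.23). Its value amounted to 0.0699% to 0.540% of that of Nptxr in WT mice and to 0.355% to 1.47% in KO mice. Cbx6, which shares the first part of Npcd, ranged from 20074 to 21794 in all mice, with a genotype difference of -0.0020 (SE 0.03). Adding the Npcd value to that of Nptxr gave a genotype difference of 0.08 in place of 0.07 and an interaction of -0.21 in place of -0.22, and left its direction and its side of the threshold in all 8 contrasts. The reads were assigned to transcripts by Salmon, and each Npcd transcript is shared with Cbx6 up to the join and with Nptxr after it. An Npcd value is therefore an estimate in which the join sets Npcd apart from neighbours of far higher values.

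**Figure D3:**
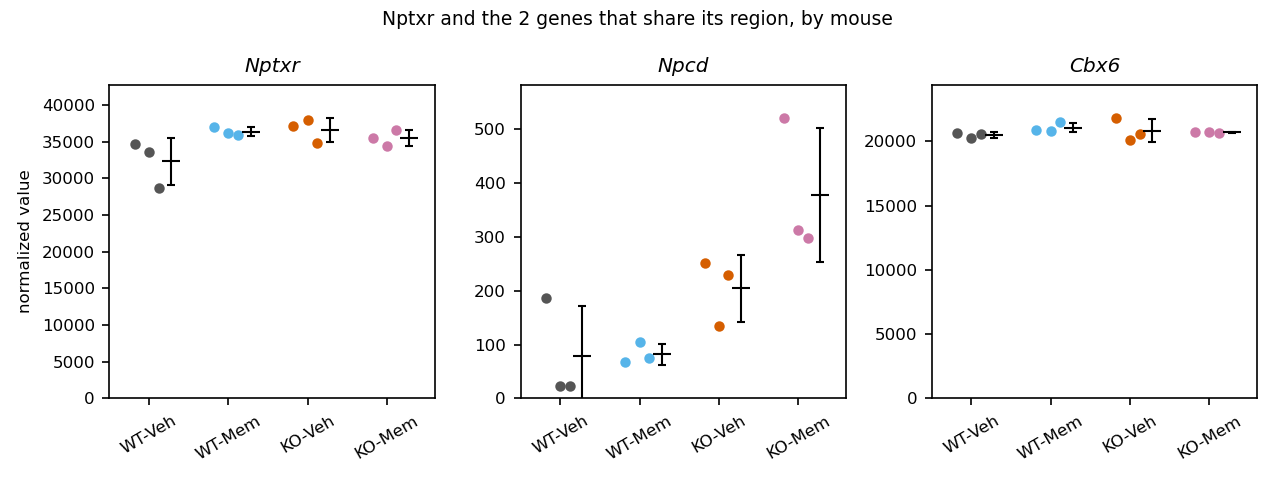
Normalized value (vertical axes, from 0) of Nptxr, Npcd and Cbx6 by group; points are mice and bars are the mean ± SD of 3 mice, drawn no lower than 0. Npcd is highest in the 3 KO-Mem mice (299 to 521), while Cbx6 stays between 20074 and 21794.

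Genes that act with the 9 were examined as lists, in the genotype contrast over 12 mice unless stated, in which 10.5% of all genes were called. Among ligands, processing enzymes and sorting proteins for neurotrophins, 1 of 9 tested was called higher in KO mice and 0 lower: Serpini1, the neuroserpin that inhibits the protease tPA, by 0.21 (SE 0.06, adjusted p = 0.0405). The median of the list was 0.07. Among the receptors, co-receptors and adaptors, 2 of 17 were called, near the 10.5% of all genes: the sorting receptor Sorcs1 was 0.23 higher (SE 0.06, adjusted p = 0.0375) and Sh2b1, an adaptor of Trk kinases, was 0.16 lower (SE 0.05, adjusted p = 0.0451). The median of that list was 0.08, beside the 0.0035 over all genes (0.125 without regard to sign). In each of the 6 pairwise comparisons and the interaction, 0 genes of both lists were called by limma. The most at an unadjusted p under 0.05 were 5 of 9 in Mem-K/W (3 higher and 2 lower in KO, 21% of all genes). In the second list they were 4 of 17 in KO-M/WT-V (2 higher and 2 lower in KO-Mem), near the 25.9% of all genes.

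Of 15 granins and dense-core vesicle proteins, 2 were called, in opposite directions, beside 10.5% of all genes. Pcsk1, a convertase that cuts prohormones and proneuropeptides, was 0.26 lower in KO mice (SE 0.07, adjusted p = 0.0277), and Cpe, the carboxypeptidase that trims the cut peptides, was 0.22 higher (SE 0.06, adjusted p = 0.0328). The median of that list was 0.03. Of the pentraxin relatives, AMPA receptor subunits and the sheddase Adam17, 6 were tested and 0 were called by limma, with 3 at an unadjusted p under 0.05 (29.4% of all genes). The smallest p-values were those of the AMPA receptor genes Gria2, at 0.17 (SE 0.06, adjusted p = 0.0671), and Gria1, at 0.14 (SE 0.05, adjusted p = 0.0732).

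Among 12 other activity-regulated secreted factors, 2 were called, beside 10.5% of all genes in this contrast, and both were lower: Cck, the gene of cholecystokinin, by 0.32 (SE 0.07, adjusted p = 0.0141) and Nrn1, neuritin, by 0.16 (SE 0.04, adjusted p = 0.0366). The median was -0.06. Of 16 CREB-linked immediate early genes, which encode the first wave of factors made after activity, 2 were called (10.5% of all genes), both lower: Fosl2 fell by 0.48 (SE 0.12, adjusted p = 0.0287) and Nr4a2 fell by 0.26 (SE 0.07, adjusted p = 0.0298). All 16 had values below 0 in that contrast, with a median of -0.42 and 10 at an unadjusted p under 0.05, compared with 29.4% of all genes. Arc, named after its values were seen, had the largest estimate of the list, at -1.25 (SE 0.40, adjusted p = 0.0613). Its values spread widely within groups, from 2598 to 11896 in WT-Veh and from 1403 to 6213 in KO-Veh. The 16 genes were measured in the same libraries, so that their shared direction is not 16 separate observations.

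Under vehicle the immediate early genes had a median difference of -0.30, with 2 of 16 at an unadjusted p under 0.05 (14.4% of all genes), and under memantine a median of -0.50, with 13 of 16 (21% of all genes). The median effect of memantine was 0.23 in WT mice and 0.0079 in KO mice, and 0 of 16 were called in any of the pairwise comparisons by limma. Beside these values the 9 genes had medians of 0.06 in Veh-K/W, 0.11 in Mem-K/W, 0.14 in WT-M/V and 0.08 in KO-M/V. Of the late activity-regulated genes, Bdnf and Nptx2 had estimates below 0 in both comparisons between genotypes, and Scg2 estimates above 0 in both, while Vgf had an estimate of each sign, and of these 8 estimates none was called. The signs of Bdnf, Nptx2 and Scg2 in Veh-K/W were not stable, since each changed when a single mouse was left out.

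**Figure D4:**
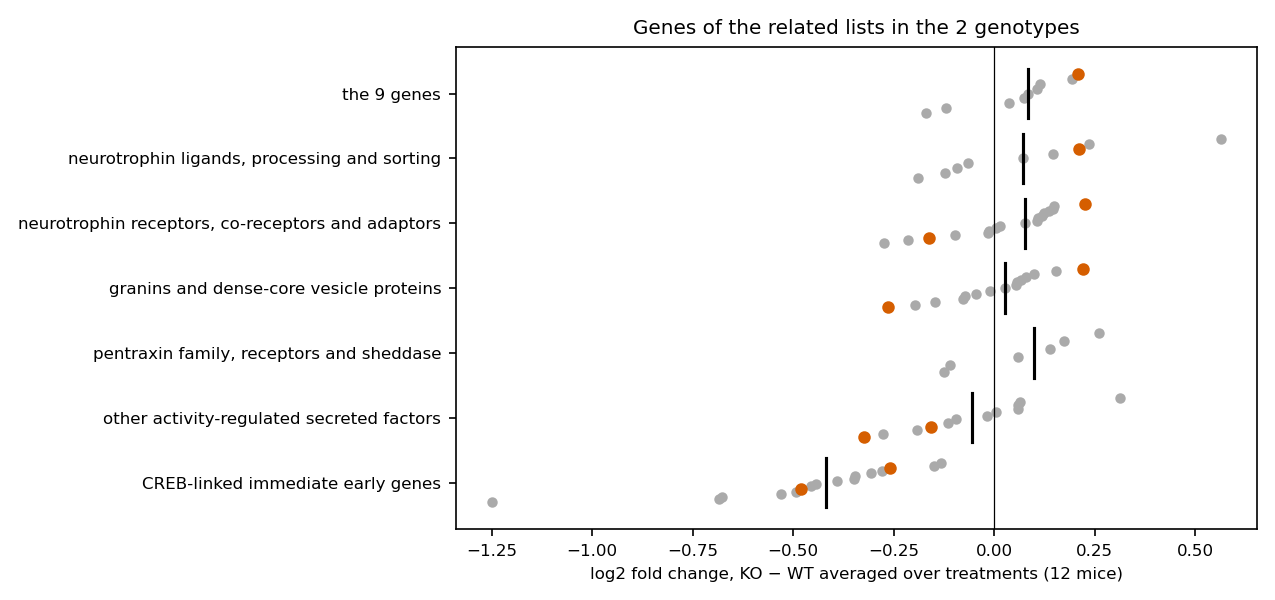
Log2 fold change between genotypes (horizontal axis, KO minus WT averaged over treatments in 12 mice) for each gene of the 9 and of 6 related lists; orange points were called, grey points were not, and black bars are list medians. The 16 immediate early genes all lie below 0 with a median of -0.42, and the 9 genes have a median of 0.08.

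How the 9 genes varied together was examined over the 12 mice with 36 pairs. Pearson's r was positive in 29 pairs, and 3 pairs passed a two-sided permutation test of 100000 resamples with adjustment over the 36. Mice were permuted across groups, so that differences between groups enter these p-values. The share of positive or passing pairs among all genes was not computed, so that the counts cannot be read as particular to the 9. The receptors Ntrk2 and Ntrk3 had r = 0.89 (permutation p = 3e-05, adjusted p = 0.00108) and Spearman's rho = 0.92 (permutation p = 6e-05, adjusted p = 0.00216). Within groups, as deviations from group means, r was 0.82, and without WT-Mem replicate 3 and WT-Veh replicate 3, the 2 mice farthest from the median of Ntrk2, r was 0.82. The 2 receptor genes thus varied together from mouse to mouse within groups too.

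Bdnf and Nptx2 had r = 0.85 (permutation p = 0.00085, adjusted p = 0.0153) and rho = 0.89 (permutation p = 0.00033, adjusted p = 0.00594). The r within groups was 0.83, and it was 0.81 without WT-Mem replicate 1 and KO-Mem replicate 2, with an adjusted permutation p of 0.0636 over the 36 pairs treated in this way. The pair thus tracked each other from mouse to mouse although neither differed between groups past the threshold. Ntrk2 and Nptx1 had r = 0.78 (permutation p = 0.00247, adjusted p = 0.0296), but rho was 0.59 (permutation p = 0.0485, adjusted p = 0.311). The r within groups was 0.60, and r was 0.85 without the 2 mice farthest on Ntrk2.

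Vgf and Scg2 had r = 0.71 (permutation p = 0.0123, adjusted p = 0.111) and rho = 0.58 (permutation p = 0.0518, adjusted p = 0.311), and the r fell to 0.03 without KO-Mem replicates 1 and 2, so that the relation rested on those mice. Within groups r was 0.70, and with any 1 mouse left out r was 0.56 to 0.82. Values of 1 mouse come from 1 library, so that depth and cell make-up are shared between the genes of a pair. No batch is named in the labels, and values within batches could not be given.

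**Figure D5:**
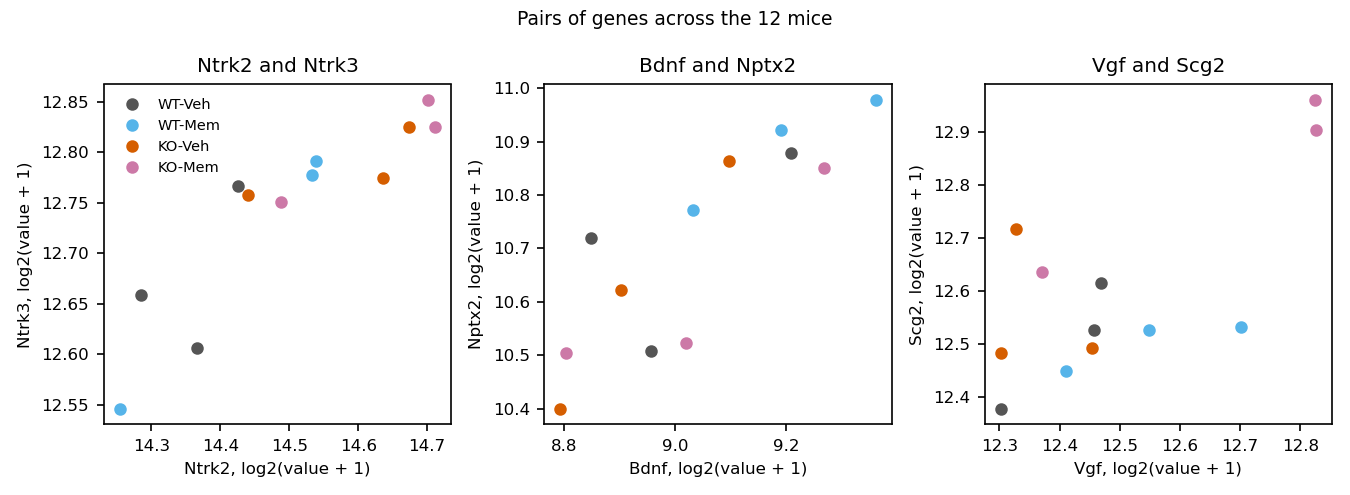
Log2(value + 1) of 1 gene against another in each of the 12 mice, coloured by group, for Ntrk2 and Ntrk3, Bdnf and Nptx2, and Vgf and Scg2. Points rise together in the first 2 panels (r = 0.89 and 0.85), and in the third the relation comes from a pair of KO-Mem mice.

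For each gene the 3 protein-coding genes of closest pattern over the 12 mice were listed, among 13308 with a mean of at least 50, as a description. Nptx2 was second for Bdnf (r = 0.85), after Crlf2 (0.88) and before Fndc4 (0.84), and it was the only one of the 9 genes among the 3 closest of another. For Ntrk2 the closest were Kif1a, a kinesin motor (0.97), Dlgap1, a postsynaptic scaffold (0.97), and Tenm1 (0.96), and for Ntrk3 they were Syt14 (0.97), Celf2 (0.96) and Zc3h12b (0.96). Scg2 was closest to Cbx7 (0.95), Eif4b (0.94) and Iqcb1 (0.94), and Vgf to Timp4 (0.92), Asic2 (0.91) and Pex14 (0.90). Nptx1 was closest to Fgfr1 (0.91), Kdm3a (0.89) and Dph7 (0.89), Nptx2 to Tmem178 (0.89), Gm49342 (0.89) and Lipo3 (0.86), and Nptxr to Pcgf3 (0.95), Usp22 (0.94) and Lancl2 (0.92). For Ntf3 they were Nosip (0.85), Evc2 (0.85) and Lmo4 (0.84).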

How the data were processed

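RNA-Seq values of 12 mice were used as deposited. The libraries were poly-A selected (TruSeq RNA v2, which does not mark strand) and read in pairs of 100 bases. Transcripts were quantified with Salmon 1.1.0 on GRCm38 with GC bias correction, summed to genes with tximport and divided by DESeq2 size factors, so that the deposited signal values are the authors' normalized read counts. The submitters' processing notes name DESeq2 1.26.0 and R 3.6.2. The annotation release was not given in the sources used here. Raw read counts could not be recovered, so that count models were not run.

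From these values, limma 3.58.1 in R 4.3.3 was fitted to log2(value + 1) of all genes with a mean of at least 10, with a mean trend in the variance and Benjamini-Hochberg adjustment. Each pairwise comparison used its own 6 mice, and the interaction and genotype contrasts used all 12. From the lists the text names the called genes of smallest adjusted p, at most 4, or, where none was called, at most 2 of smallest p in the genotype contrast, and Npcd and Cbx6. The procedure was also run on simulated data with independent noise for each gene and effects larger than any difference of the 9 genes. Such data lack variation shared by the genes of a mouse, so that the run does not bear on it. The mice of a group were separate animals, so that p-values measure the spread between mice. Exon lengths and positions came from GENCODE M21 and promoter windows from RefSeq, both on GRCm38. Alternatives were a pseudocount of 5, a filter at 50 or none, centring on the median gene, a replicate block, 1 fit of all 12 mice, no trend, each mouse left out, and Npcd added to Nptxr. All 9 genes, their related lists and the tests were chosen with earlier results of these data known. Same-numbered mice did not deviate together (r from -0.175 to 0.0802), and the numbers were not taken as pairs.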

Additional observations from a re-analysis of the deposited data

How the results depend on the processing

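Of the alternatives that kept every mouse, 426 fold changes of the 9 genes kept direction and side of the threshold, 3 gained the threshold, 2 lost it and 2 changed sign. With centring on the median gene, Nptx2 in KO-M/V was 0.0091 and Scg2 in WT-M/V was 0.0057, both near 0, and 2 of the 9 genes were called in the genotype contrast, Scg2 (0.21, adjusted p = 0.0474) beside Ntrk2. That count was 0 without a filter and 0 without a trend. In KO-M/WT-V 1 gene was called with the replicate block (Ntrk2, adjusted p = 0.0433) and 1 in a fit of all 12 mice (Scg2, adjusted p = 0.0336). The same number correlated best in 12 of 36 cases, and the block moved the genes called over the whole table in KO-M/WT-V from 595 to 999, in Mem-K/W from 12 to 4, in Veh-K/W from 5 to 2 and in WT-M/KO-V from 4 to 2. Leaving out each mouse gave 0 to 1 called genes of the 9 in Mem-K/W, 0 to 1 in KO-M/V, 0 to 3 in KO-M/WT-V and 0 to 2 in the genotype contrast. Over the whole table these counts ran from 2 to 53 in Veh-K/W, 2 to 1911 in Mem-K/W, 0 to 97 in KO-M/V, 1 to 3 in WT-M/V, 1 to 2490 in KO-M/WT-V, 1 to 5 in WT-M/KO-V, 0 to 4 in the interaction and 528 to 3263 in the genotype contrast. Whole-table counts also moved with other settings: Veh-K/W gave 2 at a filter of 50 or in a fit of 12 mice and 3 with a pseudocount of 5, Mem-K/W gave 5 without a filter and 636 in a fit of 12 mice, WT-M/V gave 0 to 1, KO-M/WT-V gave 365 without a filter and 2067 in a fit of 12 mice, and the genotype contrast gave 670 without a trend. Signs of small differences changed when a mouse was left out, each with a log2 fold change of at most 0.113 in size with all mice. In Veh-K/W the ranges were -0.0195 to 0.111 for Scg2, -0.157 to 0.0285 for Bdnf, -0.191 to 0.0408 for Nptx2 and -0.0413 to 0.157 for Ntf3, and in Mem-K/W -0.0160 to 0.206 for Ntf3. In KO-M/V they were -0.118 to 0.115 for Nptx2, -0.0210 to 0.123 for Ntrk2 and -0.0193 to 0.214 for Bdnf, and in WT-M/V -0.0682 to 0.0503 for Scg2 and -0.0157 to 0.107 for Ntrk3. KO-M/WT-V gave -0.0933 to 0.140 for Bdnf and -0.189 to 0.0118 for Nptx2, and WT-M/KO-V gave -0.0434 to 0.0189 for Nptxr, -0.0987 to 0.0183 for Nptx1 and -0.102 to 0.0155 for Scg2. The interaction gave -0.0173 to 0.0997 for Nptx1, -0.0840 to 0.0389 for Ntrk3, -0.0692 to 0.154 for Ntf3, -0.127 to 0.0400 for Ntrk2 and -0.209 to 0.0239 for Bdnf, and the genotype contrast -0.00234 to 0.112 for Vgf. The causes were not tested. Within a fixed window of low values around 1, the median was 0.874 to 1.13 normalized counts per mouse. The window itself limits how far that median can lie from 1, so that it does not measure the value of a read. With 3 mice a group, small differences of these genes were not resolved.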
